A study of Mus musculus with 7 samples.

Results

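10 genes of the intermediate filament family were followed: the nestin gene Nes, the vimentin gene Vim, the glial fibrillary acidic protein gene Gfap, the alpha-internexin gene Ina, the light and medium neurofilament genes Nefl and Nefm, the desmin gene Des, and the lamin genes Lmna, Lmnb1 and Lmnb2. They were chosen by name, and all 10 were found among the 24354 gene symbols of the deposited table, which covers 7 mouse libraries. 5 libraries came from induced neural stem cells (iNSCs), fibroblasts converted with viral factors and neural stem cell medium, and were labelled pOKSM, pBKSM, mcBKSM clone 1, mcBKSM clone 3 and DTA. Embryonic fibroblasts behind pOKSM, pBKSM, both mcBKSM clones and the MEF library had the genotype Oct4-CreER x Rosa26-loxSTOPlox-EYFP on the strain C57BL/6-Pou5f1 x 129X1/SvJ. The DTA line came from Oct4-CreER x Rosa26-loxSTOPlox-DTA fibroblasts of a strain given as unknown. In this genotype an inducible Cre under Oct4 control can, once induced, release a diphtheria toxin gene. Control cortical neural stem cells (cNSCs) came from embryos described as OG2/ROSA26, a strain label other than that of MEF and the Rosa26-EYFP lines. The embryos were taken at day 13.5. The prefixes p and mc are read as polycistronic vectors, with several factors on 1 transcript, and monocistronic vectors, with 1 factor each. The letters O, B, K, S and M are read as Oct4, Brn4, Klf4, Sox2 and Myc. Each library was made from a pool of RNA of 2 to 3 biological replicates, so the values hold no spread within a line, and mcBKSM was the only label with more than 1 library.

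Intermediate filaments are ropes of rod-shaped proteins that give cells and nuclei mechanical strength, and cell types differ in which filament genes they use. Fibroblasts build cytoplasmic filaments mainly from vimentin, neural stem cells add nestin to vimentin, astrocytes add GFAP, neurons use neurofilaments and alpha-internexin, and muscle uses desmin. Lamins line the inner nuclear membrane. The B-type lamins are made in nearly all cells and stay attached to the membrane by a farnesyl group, whereas A-type lamins, made from Lmna, are low in many undifferentiated cells and abundant in stiff mesenchymal tissue.

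The promoters of Nes, Gfap and Vim are shown because these 3 cytoplasmic filament genes had different patterns over the libraries. Each window covers 250 bases before and 50 bases after the RefSeq start site (GRCm38.p6, the build also called mm10) and is written in the direction of transcription. Capitals mark matches, on either strand, to the letters TATAAA (the TATA box), to the letters CCAAT (the CAAT box) and to the letters GGGCGG (the GC box).
Nes (chr3:87970843-87971142, plus strand): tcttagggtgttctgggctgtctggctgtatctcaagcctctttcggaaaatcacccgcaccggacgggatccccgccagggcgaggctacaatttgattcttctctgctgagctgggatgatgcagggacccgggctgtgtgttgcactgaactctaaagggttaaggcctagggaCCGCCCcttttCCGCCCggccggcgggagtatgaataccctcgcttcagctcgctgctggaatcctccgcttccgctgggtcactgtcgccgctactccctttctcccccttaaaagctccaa
Gfap (chr11:102897151-102897450, minus strand): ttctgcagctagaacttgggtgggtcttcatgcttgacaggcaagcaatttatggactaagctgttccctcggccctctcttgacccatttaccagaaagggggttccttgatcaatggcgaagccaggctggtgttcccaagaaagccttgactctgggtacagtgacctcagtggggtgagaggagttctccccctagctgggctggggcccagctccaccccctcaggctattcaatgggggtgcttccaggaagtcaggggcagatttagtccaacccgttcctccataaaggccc
Vim (chr2:13574061-13574360, plus strand): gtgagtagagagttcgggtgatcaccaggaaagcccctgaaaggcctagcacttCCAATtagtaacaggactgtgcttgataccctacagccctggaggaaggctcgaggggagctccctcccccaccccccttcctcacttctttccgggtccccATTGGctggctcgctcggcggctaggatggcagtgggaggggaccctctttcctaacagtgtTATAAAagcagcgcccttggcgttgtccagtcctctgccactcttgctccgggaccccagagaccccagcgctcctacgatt
The Nes window held 2 GC box matches, both on the reverse strand. The Vim window held 1 TATA box match, 32 bases before the start, and 2 CAAT box matches, 1 on each strand. The Gfap window held none of the 3 motifs. Of 32851 promoter windows of the same length, 13.6% held the TATA box letters, 37.4% the CAAT box letters and 35.7% the GC box letters. CpG dinucleotides numbered 18 in the Nes window, 11 in the Vim window and 3 in the Gfap window, against a median of 7 over all windows. The matches are descriptions of these letters only.

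Values are FPKM, which count fragments relative to transcript length and library size and so allow levels of different genes to be set beside each other. The estimated depth lay between 11700000 fragments (pBKSM) and 17300000 fragments (DTA). At that depth a 2 kb transcript hit by 3 fragments has 0.0867 to 0.128 FPKM. This floor covers counting error only. The cell labels were checked with marker lists. Of 10 fibroblast markers, 9 reached 1 FPKM in MEF (summed level 1713 FPKM), 0 to 3 did so in the iNSC libraries (2.67 to 250.4 FPKM) and 1 did so in cNSC (54.8 FPKM). Of 10 neural stem cell markers, 9 or 10 reached 1 FPKM in each iNSC library and 9 in cNSC, against 3 in MEF. No microglial or skeletal muscle marker reached 1 FPKM in any library.

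**Figure D1:**
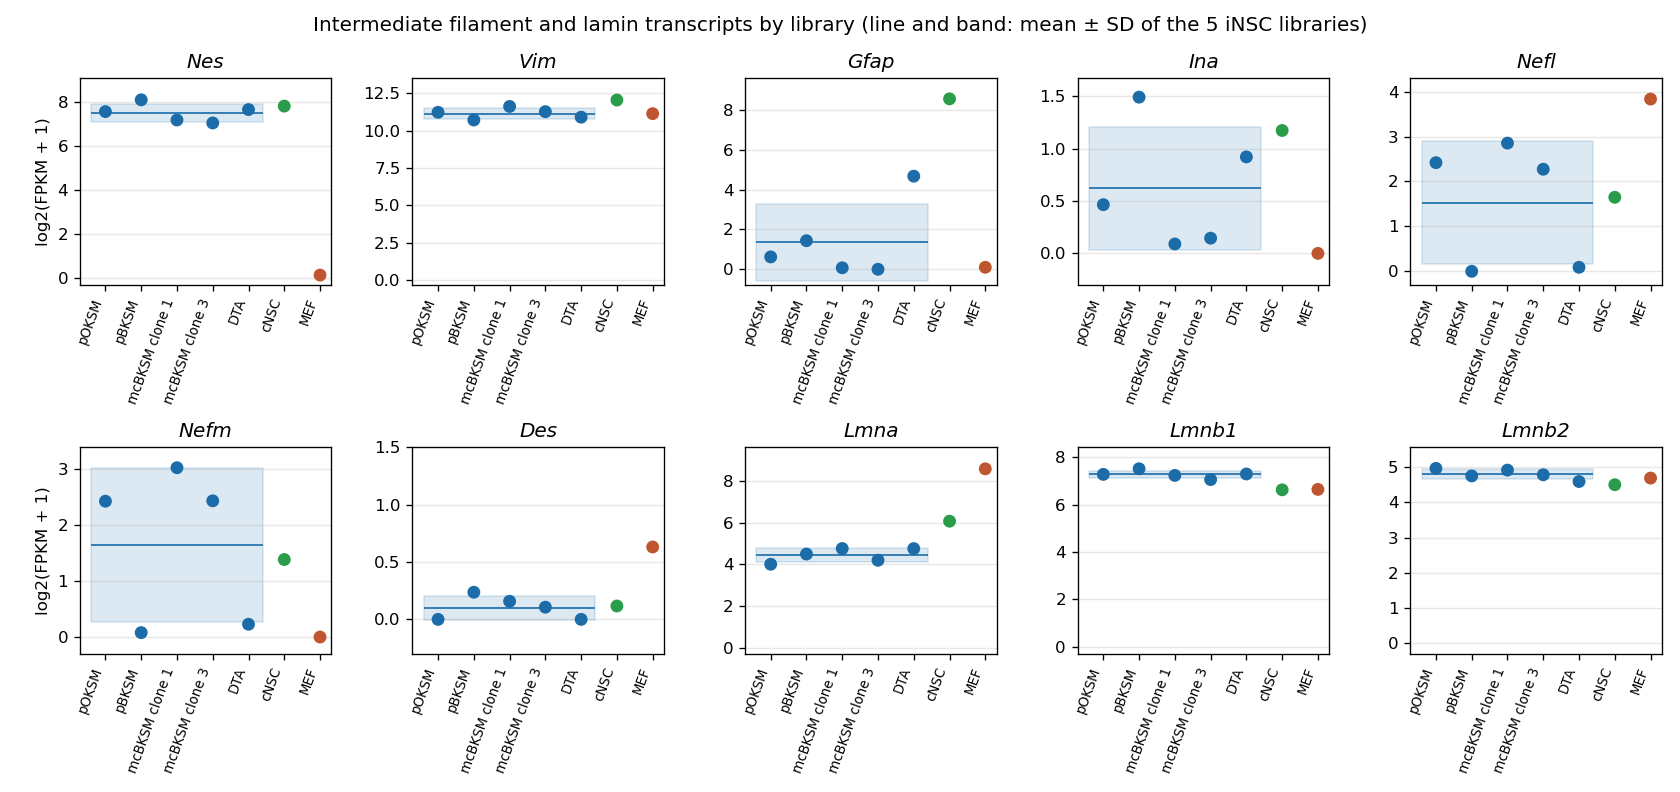
Level of each gene as log2(FPKM + 1) (vertical axis, scaled per gene) in the 5 iNSC libraries (blue), the cNSC library (green) and the MEF library (orange), with the iNSC mean as a line and its SD as a band. Nes stood high in every library but MEF, Lmna was highest in MEF, Gfap was high in cNSC and intermediate in DTA, and Nefl and Nefm were near 0 in pBKSM and DTA.

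Nestin transcripts marked every neural library. Nes (chromosome 3, 87971078 to 87980451, mm10) was 189 FPKM in pOKSM, 275 in pBKSM, 145 in mcBKSM clone 1, 132 in clone 3 and 202 in DTA, against 225 in cNSC and 0.103 in MEF. The MEF value corresponds to about 10 fragments. All 5 iNSC libraries were far above MEF and spread around cNSC, with pBKSM above it and the other 4 below it. On the log2(FPKM + 1) scale Nes was 7.38 ± 0.40 higher in iNSCs than in MEF (SE, limma adjusted p = 0.000231). The difference from cNSC was -0.30 ± 0.40 (SE, limma adjusted p = 0.74), smaller than the spread between lines.

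Vimentin was the most abundant member in each library. Vim (chromosome 2, 13573927 to 13582826) was 2382 FPKM in pOKSM, 1669 in pBKSM, 3126 in mcBKSM clone 1, 2456 in clone 3 and 1901 in DTA, against 4206 in cNSC and 2239 in MEF. It ranked between 3 (cNSC) and 51 (pBKSM) among all genes of its library. The MEF level lay inside the iNSC range and the cNSC level above it. Neither difference passed the test: iNSCs minus MEF was 0.01 ± 0.53 (SE, limma adjusted p = 0.99) and iNSCs minus cNSC was -0.90 ± 0.53 (SE, limma adjusted p = 0.50). The sign against MEF turned with quantile normalization and when pOKSM, mcBKSM clone 1 or mcBKSM clone 3 was left out.

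Of the summed FPKM of the 7 cytoplasmic filament genes, Vim made up 85.7% (pBKSM) to 95.2% (mcBKSM clone 1) in the iNSC libraries, 87.4% in cNSC and 99.4% in MEF. Nes made up 8.08% ± 3.91 in iNSCs (SD, n = 5), 4.68% in cNSC and 0.00455% in MEF. The ratio of Vim to Nes was 6.07 in pBKSM, 9.42 in DTA, 12.6 in pOKSM, and 21.5 and 18.6 in mcBKSM clones 1 and 3, against 18.7 in cNSC. By this ratio the clones and cNSC lay close and pBKSM, with the most Nes and the least Vim of the 5 lines, was lowest, whereas the Vim share of pBKSM was the nearest to that of cNSC. Gfap made up 1.15% of the sum in DTA and at most 0.0873% in each other iNSC library, against 7.78% in cNSC.

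Among the tested members, Gfap showed the widest gap between the converted and the cortical cells. Gfap (chromosome 11, 102887336 to 102900912) was 24.5 FPKM in DTA, 1.70 in pBKSM, 0.538 in pOKSM and 0.0526 in mcBKSM clone 1, and was listed at 0 in clone 3, against 374 in cNSC and 0.0720 in MEF. DTA stood well above the other 4 iNSC libraries, and both mcBKSM clones and MEF were at or under about 3 fragments. iNSCs minus cNSC was -7.19 ± 1.80 (SE) and did not pass (limma adjusted p = 0.19). Without the DTA library the difference was -8.02 and passed (limma adjusted p = 0.0116). Other astrocyte markers were counted beside it. Of 8 such genes, 7 reached 1 FPKM in DTA, 6 each in pBKSM and pOKSM, 5 in mcBKSM clone 1 and 4 in clone 3, against 7 in cNSC and 2 in MEF. Their summed level was 239 FPKM in pOKSM, 684 in pBKSM, 215 and 198 in the clones and 623 in DTA, against 277 in cNSC and 68.3 in MEF. Of the 8, 4 ordered the 5 iNSC libraries as Gfap did (Aqp4, Aldh1l1, Slc1a2 and Glul, named after their values were seen), and 4 did not. Their part in the Gfap values was not tested. In bulk samples, fewer cells of a type and less RNA per cell cannot be told apart.

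Neurofilament transcripts divided the iNSC lines. Nefl (chromosome 14, 68083863 to 68089095) was 6.23 FPKM in mcBKSM clone 1, 3.83 in clone 3, 4.34 in pOKSM and 0.0638 in DTA, and was listed at 0 in pBKSM, against 2.13 in cNSC and 13.3 in MEF. Nefm (chromosome 14, 68082590 to 68124846), whose product pairs with the light chain in axons, was 4.39 FPKM in pOKSM, 0.0562 in pBKSM, 7.16 in mcBKSM clone 1, 4.41 in clone 3 and 0.172 in DTA, against 1.61 in cNSC, and was listed at 0 in MEF. Both genes were thus well above the floor in pOKSM and the mcBKSM clones and near it in pBKSM and DTA, while MEF had Nefl, from about 697 fragments, without Nefm. Nefl and Nefm overlap on opposite strands in the GENCODE M21 annotation, and strand use in counting is not given in the sources used here, so reads of the pair may not be fully separable. Neither gene passed for iNSCs against MEF (limma adjusted p = 0.27 for Nefl and 0.43 for Nefm) or against cNSC (limma adjusted p = 0.98 and 0.94). Neuron markers were counted beside them: of 10, 8 reached 1 FPKM in pOKSM and in each clone, 6 in pBKSM and 4 in DTA, against 7 in cNSC and 2 in MEF. Summed, they stood at 281 FPKM in pOKSM, 297 in pBKSM, 231 and 271 in clones 1 and 3 and 134 in DTA. The sum was 239 FPKM in cNSC and 14.8 in MEF. By sum these markers were highest in pBKSM, where the neurofilament genes were near the floor. Their part in the neurofilament values was not tested.

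Alpha-internexin and desmin were low throughout. Ina (chromosome 19, 47014698 to 47025327), a neuronal filament gene that overlaps Nt5c2 on the other strand, was 0.381 FPKM in pOKSM, 1.81 in pBKSM, 0.0642 in mcBKSM clone 1, 0.106 in clone 3 and 0.895 in DTA, against 1.26 in cNSC, and was listed at 0 in MEF. Its highest and lowest iNSC values differed 28.3-fold, with the low end at about 3 fragments. Des (chromosome 1, 75360329 to 75368579), the muscle filament gene, was at most 0.178 FPKM in the iNSC libraries, against 0.0843 in cNSC and 0.549 in MEF, the last from about 26 fragments. It passed 1 FPKM in no library and was therefore not tested, so that 9 of the 10 genes entered the tests. Without a filter Des was tested, and iNSCs minus MEF was -0.53 ± 0.10 (SE). It was called lower there, but every value was under 1 FPKM and the iNSC values rest on few fragments, so this call carries no weight. Of 6 smooth muscle markers, a cell type that also makes desmin, 1 reached 1 FPKM in each iNSC library (summed level 12.4 to 19.6 FPKM), 4 in cNSC (72.6 FPKM) and 3 in MEF (194 FPKM), and their part in the Des values was not tested.

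The lamin genes split by type. Lmna (chromosome 3, 88480147 to 88509956), which encodes lamins A and C, was 15.01 FPKM in pOKSM, 21.5 in pBKSM, 26.0 in mcBKSM clone 1, 17.3 in clone 3 and 25.95 in DTA, against 66.2 in cNSC and 383 in MEF. The 5 iNSC libraries lay close together, below cNSC and far below MEF. The mean of 21.1 ± 4.98 FPKM (SD, n = 5) was 18.1-fold lower than in MEF, a log2(FPKM + 1) difference of -4.15 ± 0.33 (SE, limma adjusted p = 0.001). Against cNSC the difference was -1.63 ± 0.33 (SE) and did not pass (limma adjusted p = 0.118). All 5 libraries were lower than the single cNSC library, and how many other genes show this was not counted.

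Lmnb1 (chromosome 18, 56707813 to 56753424), a B-type lamin gene, was 154 FPKM in pOKSM, 181 in pBKSM, 149 in mcBKSM clone 1, 132 in clone 3 and 156 in DTA, against 97.5 in cNSC and 98.6 in MEF. All iNSC values were above the single cNSC and MEF values, which were nearly equal, and how many other genes do so was not counted. The log2(FPKM + 1) difference was 0.63 ± 0.19 against MEF and 0.65 ± 0.19 against cNSC (SE), and neither passed (limma adjusted p = 0.0814 and 0.251). With quantile normalization the difference from MEF passed (limma adjusted p = 0.0272). Lmnb2 (chromosome 10, 80901203 to 80918245), the other B-type gene, varied least: it was 27.0 ± 2.81 FPKM in iNSCs (SD, n = 5), 21.6 FPKM in cNSC and 24.8 FPKM in MEF. Its limma adjusted p was 0.70 against MEF and 0.51 against cNSC.

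Since FPKM is given per length, the lamins could be set against each other within a library. Lmna made up 7.55% (pOKSM) to 12.7% (mcBKSM clone 1) of lamin FPKM in iNSCs, 35.7% in cNSC and 75.6% in MEF. As log2 of Lmna over the sum of Lmnb1 and Lmnb2, the balance was -3.13 ± 0.35 in iNSCs (SD, n = 5), -0.85 in cNSC and 1.63 in MEF. The gaps exceeded the spread between lines, and no test was run on this ratio. Lmnb1 stood at 4.98 to 7.005 times Lmnb2 in the iNSC libraries, 4.51 times in cNSC and 3.98 times in MEF. The A-type share fell in the order MEF, cNSC, iNSC, where MEF and cNSC are a single library each. How many other genes or ratios keep this order was not counted.

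**Figure D2:**
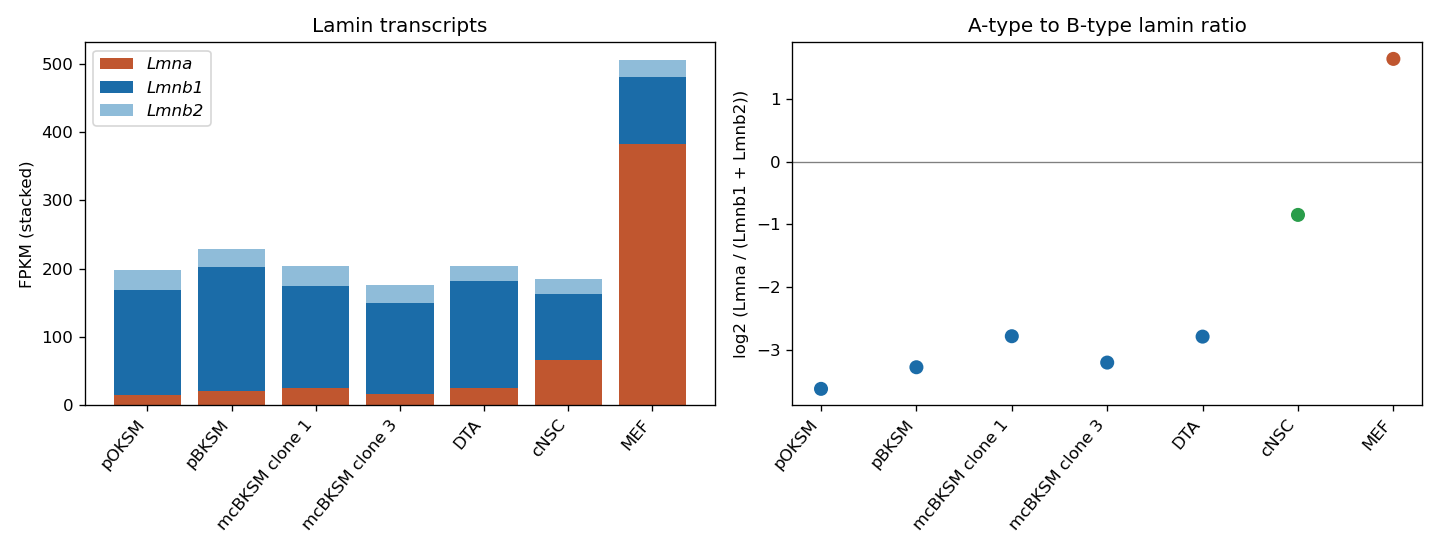
Left, FPKM of Lmna, Lmnb1 and Lmnb2 stacked for each library; right, log2 of Lmna over the sum of Lmnb1 and Lmnb2, with iNSC libraries in blue, cNSC in green and MEF in orange. The ratio lay between -3.61 and -2.78 in the iNSC libraries, at -0.85 in cNSC and at 1.63 in MEF.

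For iNSCs against MEF, 2 of the 9 tested genes were called, Nes higher and Lmna lower. Over all genes tested 16.3% were called in this comparison, 6.77% higher and 9.55% lower. The median difference of the 9 genes was 0.62, against 0.03 over all genes tested. Leaving out any 1 iNSC library left both genes called. Without a filter Des was called as well, which carries no weight because every Des value was under 1 FPKM. For iNSCs against cNSC, 0 of 9 were called by limma at an adjusted p under 0.05, beside 1.17% of all genes. At an unadjusted p under 0.05 there were 3 of 9 (Gfap, Lmna and Lmnb1), beside 13.6% of all genes. The median difference was -0.30, against 0.00486 over all genes tested. Both comparisons share the 5 iNSC libraries, and 4 of the 5 have a strain label other than that of cNSC (the DTA strain is unknown), so strain and cell origin cannot be told apart there.

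**Figure D3:**
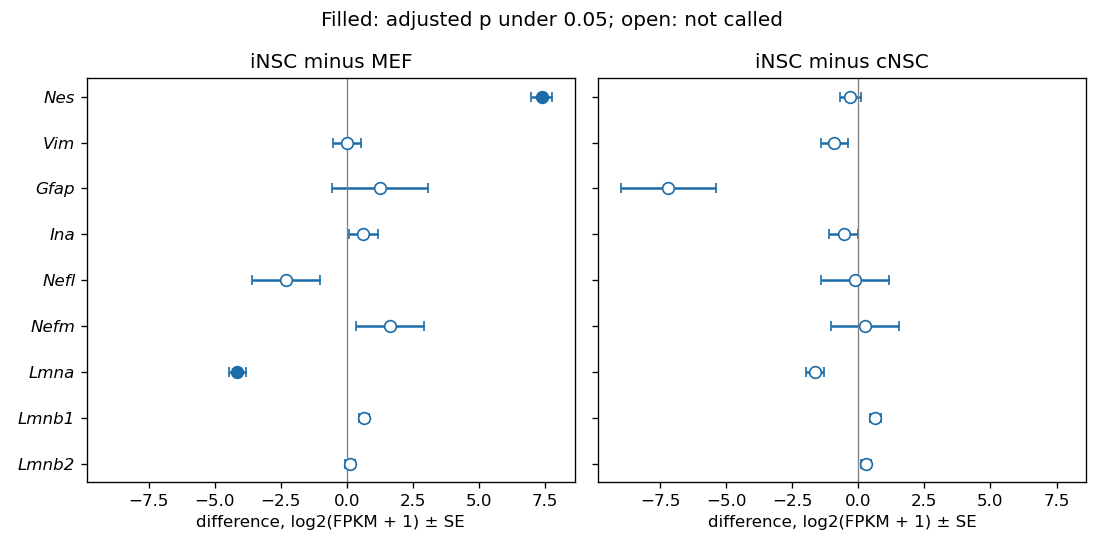
Difference on the log2(FPKM + 1) scale with its SE (horizontal axis) for the 9 tested genes, iNSC minus MEF on the left and iNSC minus cNSC on the right; filled points were called. Nes at 7.38 and Lmna at -4.15 were called against MEF, and no gene was called against cNSC.

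Differences among the converted lines were examined next. The pBKSM line and the mcBKSM clones share factors by label and differ in vector type. In pBKSM, 1 of the 9 genes was called, beside 5.82% of all genes tested in either direction and 3.74% higher: Ina was higher, by 1.38 ± 0.05 (SE, limma adjusted p = 0.0367), at 1.81 FPKM against 0.0851 ± 0.0296 in the clones (SD, n = 2). Of the compared libraries only pBKSM reached 1 FPKM of Ina, and both clones were near the floor, so this call carries no weight. It was also lost with a pseudocount of 0.1 and without a filter. Nefl and Nefm were lower by value (-2.56 ± 0.35 and -2.65 ± 0.35, SE), as pBKSM stood near 0 and the clones at 3.83 to 7.16 FPKM, without passing (limma adjusted p = 0.0752 and 0.0734). Nes was 275 FPKM in pBKSM against 139 ± 9.26 in the clones (SD, n = 2), a difference of 0.98 ± 0.11 (SE, limma adjusted p = 0.0647). Gfap differed by 1.40 ± 0.13 (SE, limma adjusted p = 0.0569). With a filter at 5 FPKM, Nes, Gfap, Nefl and Nefm were called, and Ina was not tested. In a fit of the 3 libraries alone these 4 genes and Ina were called. Nefm under the 5 FPKM filter, and Gfap, Ina, Nefl and Nefm in the fit of 3 libraries, passed the filter only through the side where they were high, so those calls carry no weight. Of the compared libraries, Nefl reached 5 FPKM only in clone 1 and Gfap in none, so their calls under that filter carry no weight either. Calls over all genes rose as well under both settings, so the Nes calls there cannot be set apart from that general rise. The spread came from the 2 clones, with 1 residual degree of freedom. The lamin differences were 0.02 ± 0.33 for Lmna, 0.37 ± 0.12 for Lmnb1 and -0.10 ± 0.11 for Lmnb2 (SE), with limma adjusted p = 0.99, 0.18 and 0.58. In the same comparison 3 of 8 astrocyte markers were called higher and 1 lower, and 1 of 10 neuron markers was called higher and 3 lower, beside 3.74% of all genes higher and 2.08% lower. Of the compared libraries, the called markers Aldh1l1, S100b, Cldn10 and Stmn2 reached 1 FPKM only on their high side, so those calls carry no weight. The part of these markers in the Gfap and neurofilament values was not tested.

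Against pOKSM, which by label carries Oct4 in place of Brn4, pBKSM gave 0 called genes of the 9 by limma and 0.00% over all genes, with 5 of the 9 and 25.1% of all genes at an unadjusted p under 0.05. The 5 were Nes (0.54 ± 0.12, SE), Gfap (0.81 ± 0.14), Ina (1.03 ± 0.06), Nefl (-2.42 ± 0.40) and Nefm (-2.35 ± 0.40). Of these, only Nes reached 1 FPKM in both libraries. Gfap, Ina, Nefl and Nefm reached it on the side where they were high alone, so their part of this count carries no weight. Each side had 1 library, so the spread was borrowed from the mcBKSM clones. The pOKSM library lay close to the clones for the neurofilaments, at 4.34 FPKM of Nefl against 6.23 and 3.83, and at 4.39 FPKM of Nefm against 7.16 and 4.41.

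The DTA line was set against the other 4 iNSC libraries. It differs from them in genotype and in strain label, and its library label names no factors or vector type. These cannot be told apart here. Of the 9 genes 0 were called by limma, beside 0.355% called over all genes tested. At an unadjusted p under 0.05 there was 1 of 9 (Gfap), beside 20.5% of all genes. Gfap was higher by value, 24.5 FPKM against 0 to 1.70 FPKM, with a difference of 4.14 ± 0.61 (SE, limma adjusted p = 0.0732). Nefl and Nefm differed by -1.80 ± 1.14 and -1.77 ± 1.16 (SE, limma adjusted p = 0.41 and 0.43), with pBKSM as low as DTA. Without pBKSM, Gfap, Nefl and Nefm had a limma adjusted p under 0.05, as did 3951 genes in place of 44. In that fit Gfap reached 1 FPKM in DTA alone, and Nefl and Nefm reached it in the other lines alone, so all 3 entered through the side where they were high and the calls carry no weight. Of the 8 astrocyte markers, the water channel gene Aqp4 was 12.7 FPKM in DTA, against 0.226 in pOKSM, 0.560 in pBKSM, 0.0409 in mcBKSM clone 1 and 0.0300 in clone 3. It reached 1 FPKM in DTA alone among these lines, and its test is not given for that reason. The difference from the other lines was positive for 6 of the 8 markers, and Gja1 was lowest in DTA.

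**Figure D4:**
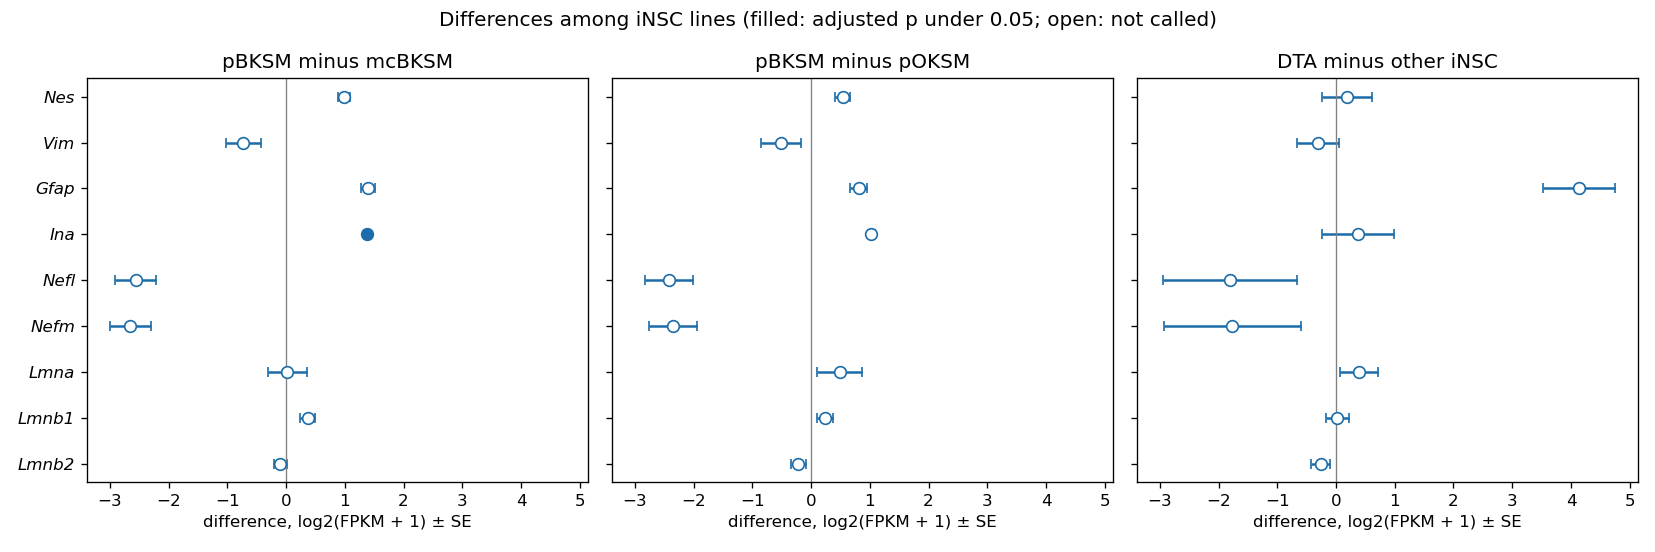
Difference on the log2(FPKM + 1) scale with its SE (horizontal axis) for the 9 tested genes in pBKSM minus mcBKSM, pBKSM minus pOKSM and DTA minus the other 4 iNSC libraries; filled points were called. Ina in pBKSM minus mcBKSM was called at 1.38, although of these libraries only pBKSM reached 1 FPKM. Gfap in DTA minus the others lay at 4.14 without a call.

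Other filament genes were nearly silent. Of 16 (further neurofilament and type III genes, lens filament genes and keratins), 2 reached 1 FPKM in any library: Prph, encoding peripherin of peripheral neurons, and Krt10, a keratin gene of skin. Neither was called for iNSCs against MEF or cNSC (0 of 2 at an unadjusted p under 0.05 in each, beside 32.3% and 13.6% of all genes). Prph was 1.43 FPKM in pOKSM, 2.31 and 2.23 in the mcBKSM clones and 0.107 in DTA, and was listed at 0 in pBKSM, against 0.908 in cNSC and 0.144 in MEF. It was lower by value in pBKSM than in the clones (-1.71). Of these libraries only the clones reached 1 FPKM of Prph, so its call carries no weight and its test is not given. Like Nefl and Nefm, it was lowest in pBKSM and DTA among the lines.

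Among 8 tested genes of filament linkers and chaperones, Plec was the only one called against MEF or cNSC that did not enter the test solely through the side where it was high. All genes called lower were 9.55% against MEF and 0.958% against cNSC. Plec, encoding the cytolinker plectin that ties vimentin to other cytoskeletal fibres, was 2.40 ± 1.16 FPKM in iNSCs (SD, n = 5) against 43.3 in cNSC and 72.1 in MEF. Its difference was -4.50 against MEF (limma adjusted p = 0.00449) and -3.78 against cNSC (limma adjusted p = 0.0472). The call against cNSC was lost without pOKSM (limma adjusted p = 0.183), mcBKSM clone 1 (0.0863) or mcBKSM clone 3 (0.145), at a pseudocount of 0.1 (0.127) and with a filter at 5 FPKM (0.0557). Fam83h, linked to keratin organisation, was 0.108 to 0.458 FPKM in the iNSC libraries, against 0.0844 in cNSC and 3.01 in MEF. Ppl, encoding periplakin, was at most 0.0191 FPKM in the iNSC libraries, against 10.3 in cNSC and 0.02002 in MEF. Each reached 1 FPKM in 1 library only, the one where it was high, so both are given as values without a test. Cryab, a small heat shock protein gene whose product binds desmin and GFAP filaments, was 46.7 FPKM in pBKSM against 0.105 in clone 3. It was listed at 0 in clone 1, and the difference of pBKSM from the clones was 5.50. It was 11.5 FPKM in pOKSM and 72.03 FPKM in DTA, against 195 FPKM in cNSC and 31.7 FPKM in MEF. Mtm1, a lipid phosphatase gene whose product binds desmin, was higher by value in pBKSM than in the clones as well (1.32). Of these libraries only pBKSM reached 1 FPKM of Cryab or of Mtm1, so both calls carry no weight and their tests are not given. The Mtm1 call was also lost at a pseudocount of 0.1, without a filter and with quantile normalization. Among the lines 0 of 8 were called for pBKSM against pOKSM (2 at an unadjusted p under 0.05, beside 25.1% of all genes) and 0 of 6 for DTA (2 at an unadjusted p under 0.05, beside 20.5%).

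Few genes of lamin processing and lamin binding were called. Of 6 processing genes, 1 fell against MEF and 0 rose, a count too small to set apart from the 9.55% of all genes called lower: Icmt, which methylates the farnesylated lamin end, was 9.22 ± 0.84 FPKM in iNSCs (SD, n = 5) against 21.7 in MEF (-1.15, limma adjusted p = 0.0164; 0.0614 without pOKSM). Zmpste24, the protease that matures prelamin A, was 25.2 ± 3.92 FPKM in iNSCs, 35.4 in cNSC and 42.6 in MEF, and was not called. Of 18 nuclear envelope partners, 2 were called lower and 0 higher against MEF, which is near the share of all genes. Sun2, encoding an inner membrane anchor of nesprins, was 16.7 ± 3.78 FPKM in iNSCs (SD, n = 5) against 64.1 in MEF (-1.91, limma adjusted p = 0.0129). The other was Syne3, encoding a nesprin that links the nucleus to filaments through plectin, at 0.0175 to 0.789 FPKM in the iNSC libraries, against 0.297 in cNSC and 11.1 in MEF. It reached 1 FPKM in MEF alone, so its call carries no weight. Against cNSC 0 of 6 processing genes (3 at an unadjusted p under 0.05) and 0 of 18 partners (1 at an unadjusted p under 0.05) were called by limma, beside 13.6% of all genes at that unadjusted p. Lbr, the receptor that holds B-type lamins, was 31.2 ± 7.09 FPKM in iNSCs (SD, n = 5), 17.9 in cNSC and 30.2 in MEF. Lbr and Zmpste24 were named outside the rule for naming genes, after their values were seen.

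Proliferation markers were read beside Lmnb1, whose transcripts are known to fall when cells stop dividing in senescence. All 12 reached 1 FPKM in each library, with summed levels of 1220 to 1537 FPKM in the iNSC libraries, 995 FPKM in cNSC and 1676 FPKM in MEF. Of these, 2 fell and 0 rose against MEF (Mcm5 and Ccna2), and 1 rose against cNSC (Birc5), beside 9.55% of all genes lower against MEF and 0.207% higher against cNSC. At an unadjusted limma p under 0.05 there were 4 of 12 against MEF and 6 of 12 against cNSC, beside 32.3% and 13.6% of all genes. The difference was positive for 3 of 12 against MEF and for 9 of 12 against cNSC. Without pOKSM the limma adjusted p was 0.059 for Mcm5, 0.0966 for Ccna2 and 0.162 for Birc5, and none of the 3 was called. Ccna2 was also lost without pBKSM (limma adjusted p = 0.0543), without mcBKSM clone 3 (0.0724) and with quantile normalization (0.112). Birc5 was also lost without pBKSM (limma adjusted p = 0.0632), mcBKSM clone 1 (0.124) or mcBKSM clone 3 (0.131) and at a pseudocount of 0.1 (0.0506). Their part in the Lmnb1 values was not tested.

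The genes with profiles most like 4 of the members over the 7 libraries were sought among about 2675 genes with a range of at least 2 on the log2(FPKM + 1) scale. These correlations describe 7 libraries that share their scaling, and the contrast with MEF dominates several of them. Nes was most like Ckb (brain creatine kinase, Pearson r = 0.999), Ptprf (0.997) and Prex1 (0.997). Gfap was most like Cxcl14 (0.998), Gfra1 (0.997) and Pde3a (0.994), of which Cxcl14 was 3.42 FPKM in DTA and at most 0.468 FPKM in the other iNSC libraries, against 20.5 in cNSC. Lmna was most like Thbs2 (0.989), Tinagl1 (0.989) and H19 (0.988), and H19 was at most 0.380 FPKM in iNSCs, against 9.19 in cNSC and 167 in MEF. Lmnb1 was most like LOC100504703 (0.986), Slc27a1 (0.959) and Traf4 (0.950).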

How the data were processed

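RNA sequencing libraries were compared as FPKM. The authors deposited 1 table of FPKM per gene symbol; the build was mm10 and the tools were R 3.3.2, Cuffnorm, Cufflinks 2.2.1 and STAR 2.5.2b, per the submitters' processing notes. Tool roles and options are not given in the sources used. Per the labels' protocols, RNA of 2 to 3 biological replicates was pooled for each library. Values scaled between libraries cannot show a change in the RNA content of a cell. All 7 columns matched a sample title.

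Depth was estimated from the lowest step of FPKM times length (less an assumed fragment length of 200 bases) in genes with 1 transcript of 2000 to 6000 bases (GENCODE M21). Of values of up to about 4 fragments, 75.5% (MEF) to 79.4% (DTA) lay within 0.1 of a whole number, where 20% would by chance. Fragment numbers are estimates from the longest annotated transcript. An exact 0 can be a failed estimate: in 21 cases a gene at 20 FPKM or more in each other library was listed at 0.

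Genes reaching 1 FPKM in any library of a fit were kept, and log2(FPKM + 1) was modelled by limma-trend (R 4.3.3, limma 3.58.1), adjusted by Benjamini-Hochberg over all genes tested and called under 0.05. This scale understates changes of low genes. The class comparisons used 3 classes (4 residual degrees of freedom), the pBKSM comparisons 6 label groups (1 degree), and DTA the 5 iNSC libraries (3 degrees). The fits take a lone library to be as variable as the replicated side, so p-values measure spread between lines or clones, not between repeats of a line. The tests were also run on simulated data that share this assumption about lone libraries, so that run cannot check it. Members, lists and tests were chosen with earlier results of these data known. Named genes were all members, of each list up to 4 called genes with the largest difference (or up to 2 as values), and for Nes, Gfap, Lmna and Lmnb1 the 3 genes of highest Pearson r; exceptions are stated. RefSeq promoters (GRCm38.p6) matched 7 of 10 members. Alternatives were a pseudocount of 0.1, no filter, a filter at 5 FPKM, quantile normalization, leaving out each iNSC library, and a fit of 3 libraries.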

Additional observations from a re-analysis of the deposited data

Results flagged for a closer look

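Gfap in the DTA library was set apart from the other 4 iNSC libraries, at 24.5 FPKM against 0 to 1.70 FPKM. Its gap to the nearest library, as a share of the range over the 5 iNSC libraries, was above Dixon's 95% critical value of 0.71. The share was taken on FPKM. On the log2(FPKM + 1) scale of the tests the gap is a smaller share of the range and lies under this limit, so the flag depends on the scale. With normally distributed values chance passes this limit in about 1 in 20 groups, and 10 genes were examined. The Gfap values are strongly skewed, so that rate need not hold here. The cortical library had 374 FPKM.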

How the results depend on the processing

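Counts of called genes moved with several settings. Against MEF, 2 members were called as deposited and 2 or 3 under each alternative (Des added without a filter, Lmnb1 with quantile normalization), while all genes called were 2128 and ranged from 1147 to 3193 when 1 iNSC library was left out (1147 without pOKSM, 1417 without mcBKSM clone 3, 3193 without DTA). Against cNSC, members called ranged from 0 to 1 on leaving out a library (1 without DTA, Gfap). All genes called were 152, with 74 at a pseudocount of 0.1, 673 without a filter, 74 with the 5 FPKM filter and 50 to 883 on leaving out a library (50 without pOKSM, 70 and 59 without mcBKSM clones 1 and 3, 883 without DTA). For pBKSM against mcBKSM, 1 member was called, with 0 at a pseudocount of 0.1, 0 without a filter, 4 with the 5 FPKM filter and 5 in the fit of 3 libraries; all genes called were 759, with 1454 under the 5 FPKM filter and 2536 in the fit of 3 libraries. For pBKSM against pOKSM, 0 members were called in each setting run, and all genes called were 0, with 7 at a pseudocount of 0.1, 974 without a filter and 90 with the 5 FPKM filter. For DTA, members called ranged from 0 to 3 on leaving out a library (3 without pBKSM), and all genes called were 44, with 17 at a pseudocount of 0.1, 944 without a filter, 16 with the 5 FPKM filter and 0 to 3951 on leaving out a library (0 without mcBKSM clone 1, 2 without clone 3, 3 without pOKSM, 3951 without pBKSM). The cause was not tested.

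Signs turned only for members far from a call. Against MEF, the Vim difference of 0.01 became -0.154 with quantile normalization and ranged from -0.109 to 0.117 on leaving out 1 iNSC library. Against cNSC, the Nefl difference became 0.0215 with quantile normalization and ranged from -0.453 to 0.26 on leaving out 1 library, and the Nefm difference became -0.249 at a pseudocount of 0.1 and ranged from -0.0932 to 0.644. With quantile normalization the Lmna difference in pBKSM against mcBKSM became -0.0404, and the Vim difference in DTA against the other lines became 0.547. The Lmnb1 difference in DTA ranged from -0.0471 to 0.105 on leaving out 1 library. Alternatives for called genes outside the 10 members were added after seeing the data. No paired analysis was possible because the label groups share no clone or replicate numbers that tie libraries together. Leaving out an mcBKSM clone in the 6-group fit leaves no residual degrees of freedom, so no count could be given there. Depth limits Des, Ina and the near-zero Gfap, Nefl and Nefm values, which rest on few fragments.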
